A study of Mus musculus with 6 samples.

Results

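Mature migratory dendritic cells were examined among CD45+ cells of B16-F10 tumors by scRNA-Seq. They were selected on measured values: a barcode was taken when it had 600 to 4000 genes, at most 10% mitochondrial UMIs, at least 10 UMIs of the MHC class II genes H2-Aa, H2-Ab1 and H2-Eb1 together, at least 1 UMI of Ccr7 and at least 3 UMIs of Fscn1, Ccl22 and Cacnb3 together. Barcodes with more than 1 UMI of C1qa, C1qb and C1qc, or with any UMI of Cd3d, Cd3e, Cd3g, Cd79a or Ms4a1, were left out. A UMI (unique molecular identifier) stands for 1 captured RNA molecule. The gate found 118 members among 30067 kept barcodes, of 52899 deposited.

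B16-F10 is a mouse melanoma line, grown here as a graft in female C57BL/6 mice aged 6 to 10 weeks. All 6 samples came from tumors treated with αPD-1, an antibody against the checkpoint receptor PD-1, at 150 µg per mouse 3 times a week from day 7. In 3 of them (αPD-1 + corin) the mice also received corin, an inhibitor of the CoREST complex that acts on its histone deacetylase and demethylase subunits, at 200 µg per mouse daily by intraperitoneal injection from day 6, and the other 3 samples (αPD-1) carry no corin label. The arms were of 10 mice each. Which animals, or how many, stand behind each sample is not in the labels, so p-values measure the spread between these samples, which may be technical. There were no tumors without αPD-1 among the samples, so the comparison speaks only of corin added to αPD-1. Cells had been frozen, thawed and enriched on CD45 beads after enzymatic dissociation.

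Conventional dendritic cells take up antigen in tissue and fall into the cDC1 lineage, which cross-presents antigen to CD8 T cells, and the cDC2 lineage, which mainly primes CD4 T cells. When either lineage matures it turns on the chemokine receptor Ccr7, which guides it along lymphatic vessels to the draining lymph node, and it gains costimulatory ligands, NF-kB pathway genes and T cell attracting chemokines while antigen uptake genes decline. In tumors such cells are also known for carrying inhibitory ligands such as PD-L1 (Cd274), and they are a source of IL-12.

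The promoters of 4 mature dendritic cell genes outside the gate held a match to the NF-kB consensus motif in the 250 bases before the transcript start. They are shown because NF-kB is the factor family that drives dendritic cell maturation and because their genes were all more abundant in the members than in cDC1 and cDC2. The sequences run 5′ to 3′ along the gene's strand in GRCm39, and capitals mark the motif match.
Relb (an NF-kB subunit, chr7:19363424-19363673, minus strand): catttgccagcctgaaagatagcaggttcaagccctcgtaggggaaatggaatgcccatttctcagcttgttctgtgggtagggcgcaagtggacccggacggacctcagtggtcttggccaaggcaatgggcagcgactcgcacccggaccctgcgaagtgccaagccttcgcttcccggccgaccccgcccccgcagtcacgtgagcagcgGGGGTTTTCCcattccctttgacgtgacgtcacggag
Cd40 (the receptor for T cell help, chr2:164897294-164897543, plus strand): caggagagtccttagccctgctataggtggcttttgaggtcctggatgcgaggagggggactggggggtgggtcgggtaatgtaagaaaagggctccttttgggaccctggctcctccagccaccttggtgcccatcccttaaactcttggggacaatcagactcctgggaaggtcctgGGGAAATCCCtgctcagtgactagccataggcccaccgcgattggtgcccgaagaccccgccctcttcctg
Pdcd1lg2 (PD-L2, a ligand of PD-1, chr19:29388069-29388318, plus strand): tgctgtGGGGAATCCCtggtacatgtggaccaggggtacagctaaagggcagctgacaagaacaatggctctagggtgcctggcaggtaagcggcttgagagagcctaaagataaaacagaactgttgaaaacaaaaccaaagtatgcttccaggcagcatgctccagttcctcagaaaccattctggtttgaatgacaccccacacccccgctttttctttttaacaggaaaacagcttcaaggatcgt
Il4i1 (a secreted amino acid oxidase, chr7:44465104-44465353, plus strand): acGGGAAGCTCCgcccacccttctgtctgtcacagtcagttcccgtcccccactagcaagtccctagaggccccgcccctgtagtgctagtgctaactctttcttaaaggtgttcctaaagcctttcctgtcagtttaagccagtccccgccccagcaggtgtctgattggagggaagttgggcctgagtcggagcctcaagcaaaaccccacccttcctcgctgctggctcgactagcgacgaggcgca

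The match began 37 bases before the start in Relb, 71 in Cd40, 244 in Pdcd1lg2 and 248 in Il4i1. Searched on both strands, the motif was in 4 of the 23 mature dendritic cell genes outside the gate (17.4%), in 0 of the 4 marker genes of the gate, and in 7.62% of 21770 promoters of protein-coding genes. A match is a run of letters and not a shown binding site, and no match says nothing about NF-kB at a gene.

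The samples held 52281422 to 84276739 UMIs each. The members summed to 45047, 14201 and 48805 UMIs in αPD-1 replicates 1 to 3, and to 222693, 187406 and 9985 UMIs in αPD-1 + corin replicates 1 to 3. αPD-1 + corin replicate 3, with 2 members, and αPD-1 replicate 2, with 3 members, stand apart: across genes the members' profile of the former correlated with the other samples at r = 0.43 to 0.647, whereas αPD-1 + corin replicates 1 and 2 correlated at 0.944. The median member had 3795.5 UMIs and 1501.5 genes, with 4616.5 UMIs in αPD-1 and 3728.5 in αPD-1 + corin. Pairs of samples shared 10 to 32 deposited barcodes, none of them among the members. Scrublet, a doublet caller, would have removed 3 members, all from αPD-1 + corin replicate 1.

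The 4 markers varied widely from member to member. Ccr7 (chromosome 11, 99035022 to 99045911) had a median of 5 UMIs and a range of 1 to 33. The T cell chemokine Ccl22 (chromosome 8, 95471226 to 95478327) had a median of 4 UMIs, from 0 to 65, and was seen in 94 of the 118 members. Fscn1 (chromosome 5, 142946098 to 142958953), which bundles actin in dendrites, had a median of 3 UMIs and was seen in 89 members, and Cacnb3 (chromosome 15, 98528721 to 98542417), a calcium channel subunit, had a median of 1.5 and was seen in 84. Members close to the limit were present in 5 of the 6 samples. In αPD-1 + corin replicate 1, 16 of 57 members had 3 or 4 UMIs of Fscn1, Ccl22 and Cacnb3, while 16 barcodes that met every other condition had 1 or 2 and 26 had none. In the same sample 10 barcodes reached 3 UMIs of these genes without a Ccr7 UMI.

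The limits on other lineages removed more barcodes than they left. Of 260 kept barcodes with the MHC class II, Ccr7 and marker UMIs, 142 were left out, 85 with more than 1 C1q UMI, 92 with a Cd3 UMI and 39 with a Cd79a or Ms4a1 UMI, some for several reasons. The step took αPD-1 from 52 to 22 and αPD-1 + corin from 208 to 96. The reasons differed between the groups. Of the 52 in αPD-1, 13 had more than 1 C1q UMI, 15 a Cd3 UMI and 23 a Cd79a or Ms4a1 UMI. Of the 208 in αPD-1 + corin, these numbers were 72, 77 and 16. Those left out had higher median UMI counts than the members in each sample, for example 6120 against 3272 in αPD-1 + corin replicate 1. A further 5 barcodes met the gate but had more than 4000 genes.

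Outside the genes of the gate, the members had the profile that their name implies. Of 23 further mature dendritic cell genes, 21 were more abundant in the members than in both cDC1 (247 barcodes) and cDC2 (255 barcodes) when UMIs were pooled and scaled to CPM (UMIs of a gene per 1000000 UMIs of the class), and 17 were so in at least 5 of the 6 samples. For comparison, 28.7% of 6872 genes with at least 50 UMIs over the 3 classes were above both. Ccl19, a ligand of Ccr7, had 0 UMIs in the members, and Zbtb46, a transcription factor of conventional dendritic cells, lay between the other classes at 94.7 CPM. All of these are descriptions, since the cells were chosen by their own RNA.

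Il4i1 had 507 CPM in the members, against 0.679 in cDC1 and 59.0 in cDC2. Socs2, a feedback inhibitor of cytokine signaling, had 403 CPM against 2.04 and 18.5, which is 21.8 times its level in cDC2. Il12b, the shared subunit of IL-12 and IL-23, had 515 CPM against 14.3 and 10.1. Marcksl1, which regulates the actin cortex, had 986 CPM against 45.5 and 106, and the membrane protein gene Tmem123 had 1064 CPM against 36.0 and 139.9. All 5 genes were thus several times higher in the members than in either other class. Cd274 was 475 CPM in the members, 71.3 in cDC1 and 160.1 in cDC2, and Pdcd1lg2 was 134 CPM against 8.83 and 35.4. Cd200, another inhibitory ligand, was 109.8 CPM against 6.11 in cDC1 and 0 in cDC2.

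**Figure D1:**
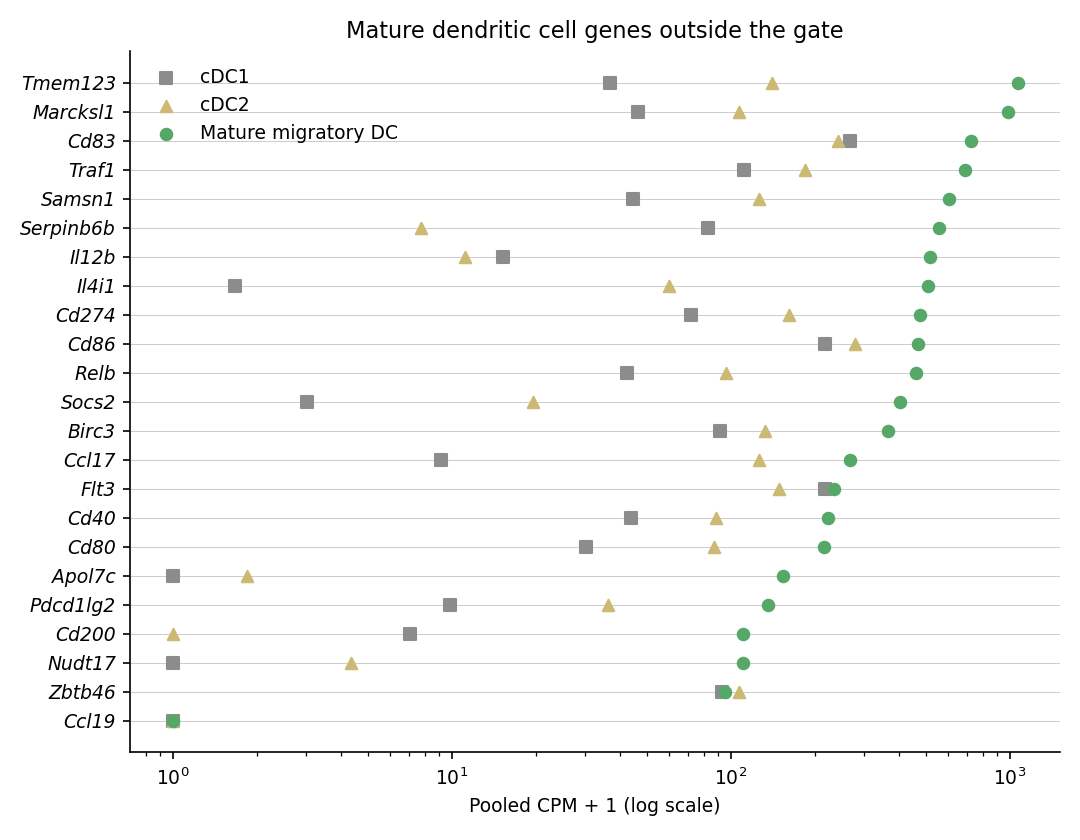
Pooled CPM + 1 on a log axis of the 23 mature dendritic cell genes outside the gate, with circles for the 118 members, squares for 247 cDC1 and triangles for 255 cDC2. The circle lies to the right of both other symbols for 21 genes, and at Ccl19 all 3 symbols lie at 0 CPM.

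Of the NF-kB pathway genes, 20 of 22 were above both cDC1 and cDC2, 12 of them in at least 5 samples. Relb had 460.1 CPM against 41.4 and 95.2, Traf1, a signaling adaptor of TNF receptors, 691 against 110.7 and 183, and Birc2, an inhibitor of apoptosis, 259 against 24.4 and 37.9. Rela and Traf2 lay between the classes. Costimulatory ligands were above both in 11 of 13 cases by pooled CPM, but only 2, Cd40 and Cd83, were so in at least 5 samples, and Cd70, Tnfsf15 and Slamf1 among the 11 had 14, 6 and 2 UMIs in the members: Cd83 had 725 CPM against 266 and 240.2, Cd86 466 against 217 and 278, Cd80 214 against 29.2 and 86.0, and Cd40 222 against 42.8 and 87.7. Cd48 and Vsir were the 2 below both.

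Among chemokines, Ccl5, which attracts T cells and NK cells, was the most abundant in the members at 3325 CPM, against 36.7 in cDC1 and 121 in cDC2. Of the 19 chemokines 7 were above both classes, 3 of them in at least 5 samples, 5 were below both (Ccl2, Ccl4, Ccl24, Cxcl1 and Cxcl10) and 7 lay between. Cxcl16 was higher in the members than in both at 489 CPM against 93.0 and 73.3, and Ccl17, which like Ccl22 binds the receptor Ccr4, had 267 CPM against 8.15 and 125. Among cytokines, Il15 had 104 CPM against 19.7 and 30.3, and its presenting receptor chain Il15ra 100.4 CPM against 11.5 and 9.27. Ido1, a tryptophan-degrading enzyme, had 0 UMIs in the members.

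Several genes of antigen processing and lineage identity stood lower. Of 14 MHC class II pathway genes outside the gate 5 were below both classes, 3 above both and 6 between them. The peptide exchange factors H2-DMa and H2-DMb1 had 297 and 117 CPM in the members, against 840 and 588 in cDC1 and 920.4 and 724 in cDC2. March1, the ubiquitin ligase that removes MHC class II from the surface of immature cells, had 18.9 CPM against 187 and 115, lower in all 6 samples, whereas H2-Eb2 had 206 CPM against 19.0 and 27.0. Of 14 cDC1 genes 0 were above both classes, with Naaa at 104 CPM against 1326 and 287 and Wdfy4, needed for cross-presentation, at 163 against 1206 and 282. Of 12 cDC2 genes 1, Tnip3, was above both, and Klf4 had 140.1 CPM against 198 and 284. Xcr1, Clec9a and Cd209a in these lists, and Flt3 and Zbtb46 among the mature dendritic cell genes, were used to gate cDC1 or cDC2, so their levels there were set by the selection. Of 20 cell cycle genes 15 were below both and none above, with the proliferation marker Mki67 at 30.3 CPM against 208 and 67.4.

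UMIs of genes typical of cDC1 and of cDC2 were found in the members, with up to 21 UMIs of Mgl2 and 7 of Cd209a in a member. Only cDC1-side genes (Xcr1, Clec9a or Cadm1) were detected in 10 members, only cDC2-side genes (Cd209a, Sirpa, Itgam, Clec10a or Mgl2) in 61, both in 8 and neither in 39. In αPD-1 the numbers were 3, 7, 2 and 10, and in αPD-1 + corin 7, 54, 6 and 29. These are counts of detection and not of lineage, since Sirpa was seen unthinned in 42.4% of members but also in 15.0% of cDC1 and 6.18% of T cells, and Itgam in 22.9%, 15.4% and 8.35%. After thinning to 1000 UMIs Itgam was seen in 5.08% of members, 4.86% of cDC1 and 3.13% of T cells, and Sirpa in 13.6%, 3.64% and 1.81%. Both members of αPD-1 + corin replicate 3 had cDC1-side genes only, and both had Il12b UMIs. In all, Il12b was detected in 27 members, Ccl17 in 33 and both in 8. Ccl17 was thus detected in 8 of the 27 members with Il12b and in 33 of all 118 members, which are similar shares.

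Il12b and Il4i1 were detected in a larger share of members than of T cells or cDC2. T cells were gated on fewer than 3 MHC class II UMIs, so T cell barcodes with more MHC class II RNA were left out. Free RNA itself was not measured. After each barcode was thinned to 1000 UMIs, Il12b was seen in 19 of 118 members (16.1%, 95% exact binomial interval 9.98 to 24.0), against 1 of 3259 T cells (0.0307%), 3 of 247 cDC1 (1.21%) and 1 of 255 cDC2 (0.392%). Il4i1 was seen in 34.7% of thinned members, 2.35% of cDC2 and 0.153% of T cells. Ccl5 differed from both, with 54.2% of members and 58.8% of T cells, which make Ccl5 themselves. The unthinned shares in members were 22.9% for Il12b, 71.2% for Il4i1 and 70.3% for Ccl5. Intervals cover counting error only.

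Whether corin changed the abundance of these cells was asked first. Members were 0.134%, 0.0797% and 0.294% of kept barcodes in αPD-1 replicates 1 to 3 (6 of 4465, 3 of 3763 and 13 of 4424), and 0.686%, 0.886% and 0.0406% in αPD-1 + corin replicates 1 to 3 (57 of 8310, 37 of 4174 and 2 of 4931). The exact binomial intervals of αPD-1 + corin replicates 1 and 2 (0.520 to 0.888% and 0.625 to 1.22%) lay above the intervals of all αPD-1 samples, the highest of which ended at 0.502%, and that of replicate 3 (0.00491 to 0.146%) overlapped them. The groups therefore overlapped, with means of 0.169% ± 0.111 (SD, n = 3) and 0.538% ± 0.442 (SD, n = 3), a difference of 0.368 percentage points. A two-sided test by exact permutation gave p = 0.4, and 0.5 after adjustment for 2 share comparisons. The smallest possible p is 0.1, so this test could not pass the threshold of 0.05 and does not decide the question. The separation of the intervals depended on the denominator. Among kept barcodes without Cd3, Cd79a or Ms4a1 UMIs, αPD-1 replicate 3 had 0.738% (0.394 to 1.26%). There αPD-1 + corin replicates 1 and 2 had 0.779% (0.590 to 1.01%) and 1.20% (0.847 to 1.65%), with intervals that overlapped it. The difference of means was then 0.266 percentage points (exact permutation p = 0.6).

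As a share of the gated dendritic cells, members were 10.7%, 7.32% and 18.3% in αPD-1 and 23.2%, 29.4% and 2.50% in αPD-1 + corin. The means were 12.1% ± 5.63 (SD, n = 3) and 18.3% ± 14.1 (SD, n = 3), again overlapping (exact permutation p = 0.5, adjusted p = 0.5). This test too could not pass the threshold with so few samples. In both comparisons the overlap came from αPD-1 + corin replicate 3. Without it the differences were 0.617 and 14.2 percentage points and the groups no longer overlapped, with an exact permutation p of 0.2 for each, the smallest that 3 against 2 samples allow. An edgeR fit of cell counts over the gated classes gave members a log2 ratio of 1.64 (adjusted p = 0.234). In these cell suspensions, a larger share can mean more of these cells or fewer of the others.

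**Figure D2:**
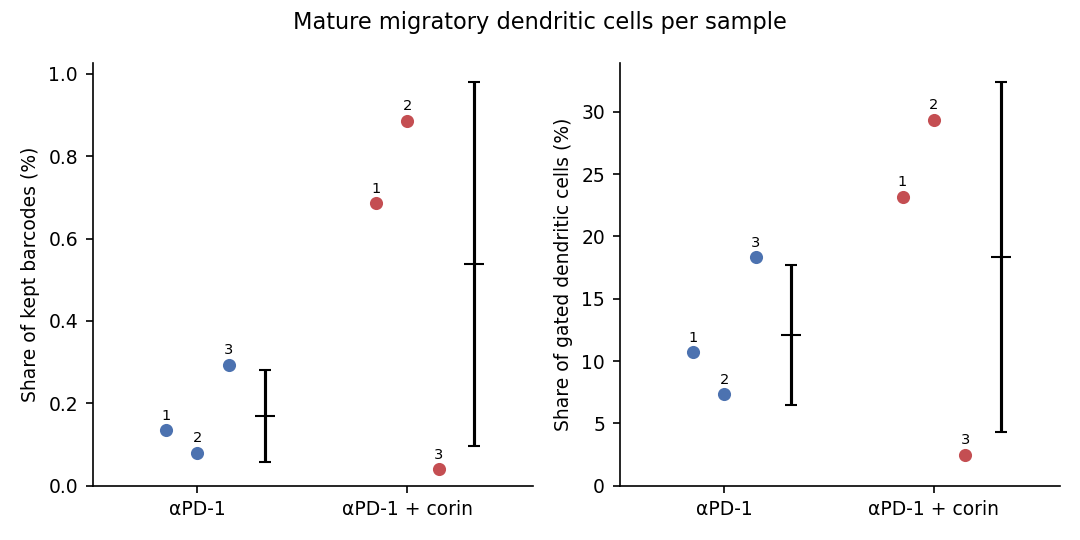
Mature migratory dendritic cells as a percentage of kept barcodes (left) and of gated dendritic cells (right), with 1 numbered point per replicate and black bars for mean ± SD of 3 samples. Replicates 1 and 2 of αPD-1 + corin (0.686% and 0.886% of kept barcodes) lie above the αPD-1 samples and replicate 3 (0.0406%) lies below them.

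The second question was whether the members' RNA differed between treatments. UMIs were summed over the members of each sample and tested across samples with edgeR's quasi-likelihood test. Of 616 genes that passed the filter on low counts and were not used by the gate, 0 (0%) had an adjusted p under 0.05, and 43 had an unadjusted p under 0.05. DESeq2 called 2 genes, both lower with corin, the heat shock gene Hspa1b (adjusted p = 0.00601) and the kinase gene Camk1d (adjusted p = 0.0476). On simulated counts with the same means and library sizes, edgeR found 168 of 200 genes changed 4-fold among 623, with 4 false calls. Every simulated gene had the same dispersion of 0.119, and a large part of the genes was changed. The simulation therefore does not tell how often a 4-fold change would be found where few genes change or genes vary more. The median log2 fold change over the tested genes was -0.0047. Without αPD-1 + corin replicate 3 edgeR called 3 genes, S100a8, S100a9 and Cxcl2, all higher with corin. The αPD-1 members held 0 UMIs of S100a8, 0 of S100a9 and 2 of Cxcl2. These genes thus had enough counts for the filter only in the corin samples, where they were high, so their direction is a description.

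The genes of the gate are given as a description. Ccl22 had 955, 352 and 1106 CPM in αPD-1 replicates 1 to 3 and 1792, 2209 and 2003 CPM in αPD-1 + corin replicates 1 to 3. Every corin sample was thus above every αPD-1 sample, as were 12.3% of the tested genes outside the gate. Members were admitted partly on their Ccl22 UMIs. Ccr7 had 1621, 1056 and 1660 CPM against 1477, 2044 and 901, and Fscn1 1243, 2887 and 1639 CPM against 1118, 1371 and 1002, both overlapping. Cacnb3 had 422, 1197 and 409.8 CPM against 418, 528 and 0.

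Of the 23 further mature dendritic cell genes 17 could be tested, with 8 positive and 9 negative log2 fold changes and a median of -0.05. No overlap between samples was seen for 0 in the higher and 4 in the lower direction, where the background over all tested genes was 12.3% in the higher and 6.01% in the lower direction. The 4 were Relb, Traf1, Socs2 and Il4i1. Relb had 599, 634 and 656 CPM in αPD-1 and 350.3, 496 and 401 CPM in αPD-1 + corin, a log2 fold change of -0.76 (SE 0.30, adjusted p = 0.628).

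Traf1 had 1243, 1056 and 758 CPM in αPD-1 and 575, 662 and 501 CPM in αPD-1 + corin, a log2 fold change of -0.96 (SE 0.34, adjusted p = 0.539). Socs2 had 577, 704 and 533 CPM against 283, 464 and 100.2 (log2 fold change -0.97, SE 0.39, adjusted p = 0.630). For both, the αPD-1 samples lay above the corin samples, and the difference did not pass the test across all genes. Il4i1 had 777, 493 and 758 CPM against 458, 464 and 0, with a log2 fold change of -1.01 (SE 0.52, adjusted p = 0.715). A further gene, Apol7c, had 22, 48 and 3 UMIs in αPD-1 and 3, 5 and 0 in αPD-1 + corin, and was below the count filter.

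Il12b, Ccl5 and Cd274 overlapped between treatments. Il12b had 199.8, 1479 and 287 CPM in αPD-1 and 548, 528 and 701 CPM in αPD-1 + corin (log2 fold change -0.05, SE 0.67, adjusted p = 0.993). Ccl5 had 1976, 7253 and 2295 CPM against 2596, 4653 and 200.3. The highest αPD-1 value of both genes came from replicate 2, with its 3 members. Cd274 had 266, 141 and 451 CPM against 472, 587 and 0. Costimulatory ligands had 4 positive and 0 negative log2 fold changes among 4 tested (Cd40, Cd80, Cd83 and Cd86), with a median of 0.42 and a lowest adjusted p of 0.795. Cd83 had 555, 211 and 553 CPM against 696, 896 and 501. In the other pathway lists, 12 NF-kB genes were tested (6 positive, 6 negative, median -0.06), 6 of MHC class II (4 positive, 2 negative, median 0.32) and 13 of migration and cytoskeleton (5 positive, 8 negative, median -0.27), with no call in any.

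Of 44 interferon-stimulated genes 7 passed the count filter, with 7 negative and 0 positive log2 fold changes and a median of -0.82. Gbp2, a guanylate-binding protein induced by interferon gamma, had 377, 282 and 246 CPM in αPD-1 and 126, 64.0 and 100.2 CPM in αPD-1 + corin, a log2 fold change of -1.85 (SE 0.46, adjusted p = 0.539). Epsti1 had 777, 6760.1 and 676 CPM against 382, 598 and 601, the largest value again in αPD-1 replicate 2. These 2 of 7 genes were the ones without overlap, where the background in the lower direction was 6.01%. Gbp2 had enough counts for the filter only in the αPD-1 samples, where it was high, so its direction is a description. MHC class I pathway genes had 4 positive and 12 negative log2 fold changes among 16. Nlrc5, the transactivator of these genes, had 266, 915 and 471 CPM against 126, 176 and 300.5 (log2 fold change -1.75, SE 0.51, adjusted p = 0.539), and the peptide loading factor Tapbp had 355, 493 and 512 CPM against 180, 251 and 0.

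Of 21 genes of hypoxia and glycolysis 8 passed the count filter. All 8 had positive log2 fold changes, with a median of 0.87. Samples did not overlap for 6 of them, where the background was 12.3%. These counts are descriptions, since Pgk1 had enough counts for the filter in every corin sample but not in every αPD-1 sample. Pgk1, a glycolytic kinase gene (chromosome X, 105230706 to 105247305), had 355, 141 and 143 CPM in αPD-1 and 876, 528 and 701 CPM in αPD-1 + corin, a log2 fold change of 1.42 (SE 0.49, adjusted p = 0.539). Ldha, which makes lactate, had 355, 0 and 246 CPM against 871, 459 and 901 (log2 fold change 1.35, SE 0.62, adjusted p = 0.650). None passed the test, and the direction depended on the upper limit of 4000 genes: with no limit the log2 fold changes became -1.04 for Pgk1, -0.34 for Ldha and -1.01 for Tpi1. In cDC1 the log2 fold change of Pgk1 was -0.11 and in cDC2 0.51, and the difference between members and either class did not pass the test (adjusted p = 0.792 and 1.00).

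Hspa1b (chromosome 17, 35175412 to 35178214) had the lowest p of all genes. It had 1621, 1479 and 799 CPM in αPD-1 and 184, 261 and 401 CPM in αPD-1 + corin, without overlap, and its log2 fold change was -2.58 (SE 0.46, adjusted p = 0.313 by edgeR). Its near-identical copy Hspa1a had 1132, 704 and 512 CPM against 180, 534 and 801, and reads may be split between them. Hspa1b fell in cDC2 of the same samples (log2 fold change -2.57, SE 0.40, adjusted p = 0.0309), its value in cDC1 was -1.68 (SE 0.27, adjusted p = 0.0710), and the difference in log2 fold change between members and cDC2 was 0.57 (SE 0.58, adjusted p = 1.00) and between members and cDC1 -0.50 (SE 0.61, adjusted p = 0.998). Hspa1b is a gene that tissue dissociation and thawing can induce, and the part of sample handling was not tested.

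**Figure D3:**
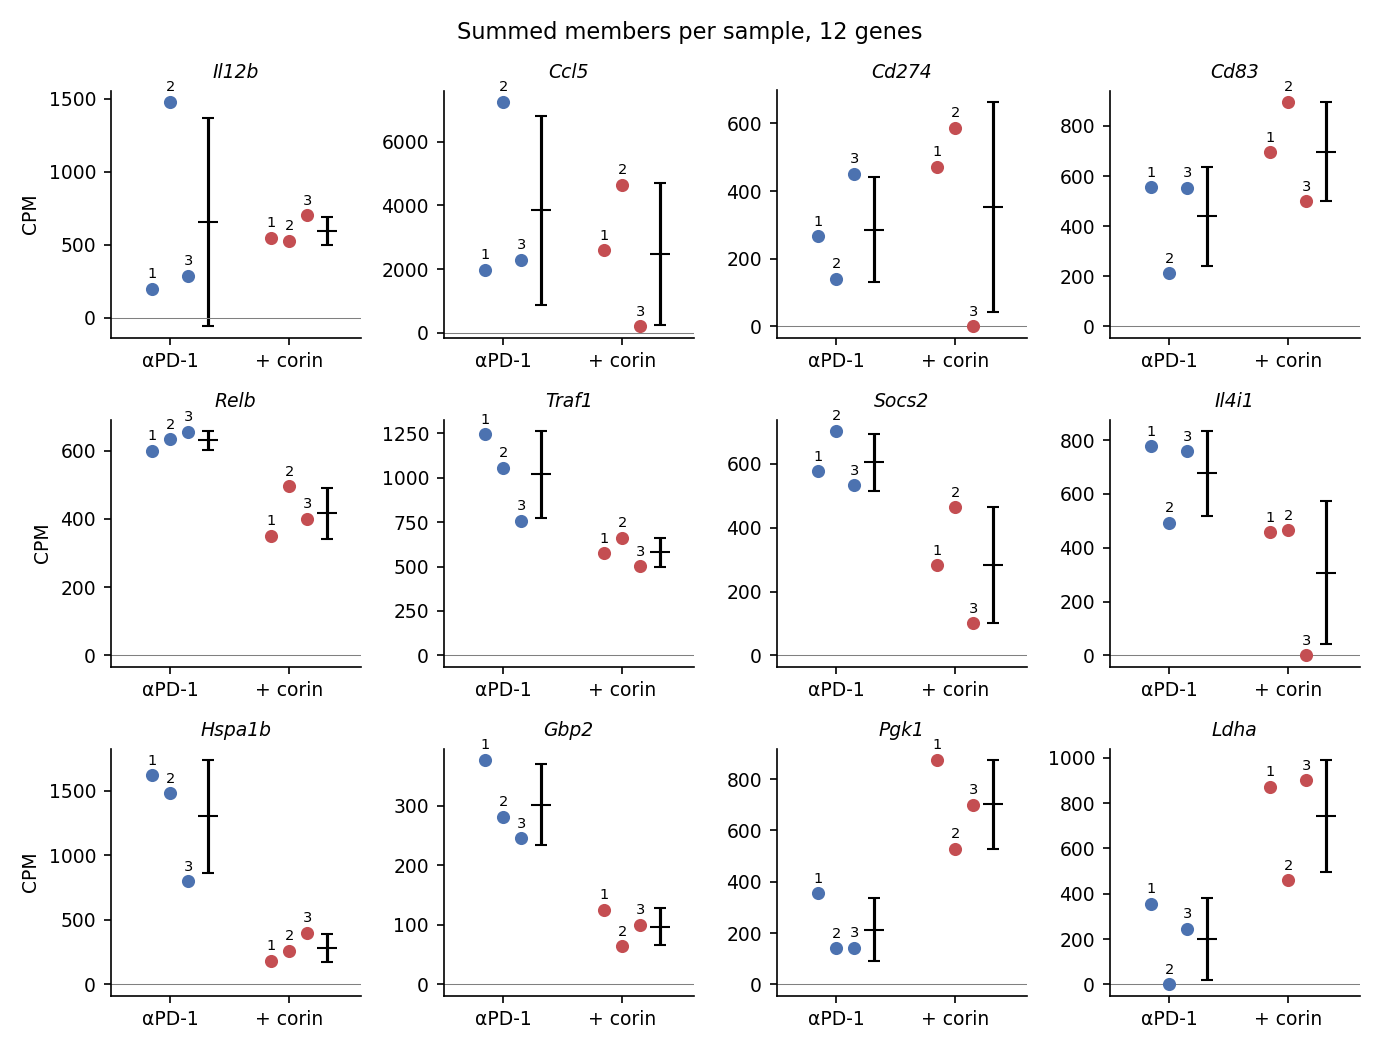
CPM of 12 genes in the summed members of each sample, with 1 numbered point per replicate (αPD-1 left, αPD-1 + corin right) and black bars for mean ± SD of 3 samples, on linear axes. Relb, Traf1, Socs2, Il4i1, Hspa1b and Gbp2 lie lower and Pgk1 and Ldha higher in every corin sample, whereas Il12b, Ccl5, Cd274 and Cd83 overlap, and no gene passed the adjusted test of edgeR.

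RNA of other cell types was present in the members, for neutrophil genes in αPD-1 + corin replicates 1 and 2 but not in replicate 3. None of the neutrophil genes passed the count filter of the main test. The 6 neutrophil genes summed to 0 to 20.5 CPM in αPD-1 and 0 to 6051 CPM in αPD-1 + corin, where 37 members had a UMI. S100a9, the most abundant neutrophil transcript here, had 0 UMIs in the 3 αPD-1 samples and 685, 795 and 0 UMIs in αPD-1 + corin, in 20 of 57, 14 of 37 and 0 of 2 members. In pooled UMIs the corin group was at least 127-fold above a limit of 3 UMIs over the αPD-1 group. This bound does not cover the spread between samples, since all the UMIs lay in αPD-1 + corin replicates 1 and 2. The same 2 samples also had S100a9 in T cells (1854 and 5236 CPM), cDC1 and cDC2, while T cells of the αPD-1 samples had 97.6, 2.59 and 0 CPM and those of αPD-1 + corin replicate 3 had 238 CPM. Cxcl2, a neutrophil-attracting chemokine, followed it in the members at 0, 0 and 2 UMIs against 646, 672 and 0. What part free RNA or neutrophils sharing a droplet had in these values was not tested.

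Other lists moved less evenly. Macrophage genes summed to 0 to 922 CPM in αPD-1 and 197 to 1190.0 CPM in αPD-1 + corin, monocyte genes to 0 to 881 and 501 to 979, T cell genes to 0 to 61.5 and 64.0 to 100.2, plasmacytoid dendritic cell genes to 0 and 0 to 438, and NK genes to 0 and 0 to 31.4. B cell genes reached 4284 CPM in αPD-1 replicate 1, where a single member held 182 Igkc UMIs and 226 Jchain UMIs, and 0 to 133 CPM in αPD-1 + corin. Melanoma genes reached 1599 CPM in αPD-1 + corin replicate 1, with 186 of 356 UMIs in 1 member, and fibroblast genes 921 CPM there, with 203 of 205 UMIs in 1 member. Their part in the comparisons above was not tested.

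Whether the response differed from that of less mature dendritic cells was tested as an interaction of treatment and class within samples. Against cDC2, 2 of 2983 genes (0.067%) differed, and against cDC1 6 of 3648 (0.164%). Ccl3, a chemokine for monocytes and T cells, differed from both. The members held 0, 0 and 0 Ccl3 UMIs in αPD-1 and 141, 262 and 1 in αPD-1 + corin (25 of 57, 14 of 37 and 1 of 2 members). In pooled UMIs the corin group was at least 34.6-fold above a limit of 3 UMIs over the αPD-1 group. This bound does not cover the spread between samples. In cDC2 Ccl3 had 216, 145 and 429 CPM against 1038, 1122 and 296. The fitted difference in log2 fold change was 8.06 against cDC2 (adjusted p = 0.0129) and 8.12 against cDC1 (adjusted p = 0.0326), and these depend on the prior count since 1 group is at 0. Within cDC2 and cDC1 the Ccl3 log2 fold change was 1.68 in each, with adjusted p = 0.261 and 0.299. Ccl3 was also present in T cells of every sample, at 456 to 2061 CPM.

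Spp1, osteopontin, rose relative to cDC1 by 5.06 on the log2 scale (SE 1.18, adjusted p = 0.0326), with 1, 0 and 0 UMIs in the αPD-1 members and 82, 50 and 1 in the αPD-1 + corin members. This value too depends on the prior count, since the αPD-1 members held 1 UMI. Spp1 in cDC1 was 502, 36.1 and 44.7 CPM in αPD-1 and 217, 172 and 113 CPM in αPD-1 + corin. T cells of the same samples had 79.3, 81.6 and 116 CPM of Spp1 in αPD-1 and 991, 535 and 189.6 CPM in αPD-1 + corin. Nr4a2, an early response transcription factor, went the other way, with 222, 563 and 328 CPM in αPD-1 members and 85.3, 176 and 100.2 CPM in αPD-1 + corin members and a difference from cDC1 of -2.72 (SE 0.66, adjusted p = 0.0326). In cDC1 the Nr4a2 log2 fold change was 1.25 (adjusted p = 0.305). Few of these calls held under other settings. Over all alternatives the call against cDC1 was kept in 1 of 10 for Ccl3, 2 of 9 for Spp1 and 1 of 9 for Nr4a2, and that of Ccl3 against cDC2 in 3 of 10. With 1 sample left out at a time, Ccl3 and Nr4a2 did not pass against cDC1 in any of the 6 fits (lowest adjusted p = 0.0582 and 0.216 by edgeR), and 0 genes differed from either class without αPD-1 replicate 1, αPD-1 + corin replicate 1 or αPD-1 + corin replicate 2.

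**Figure D4:**
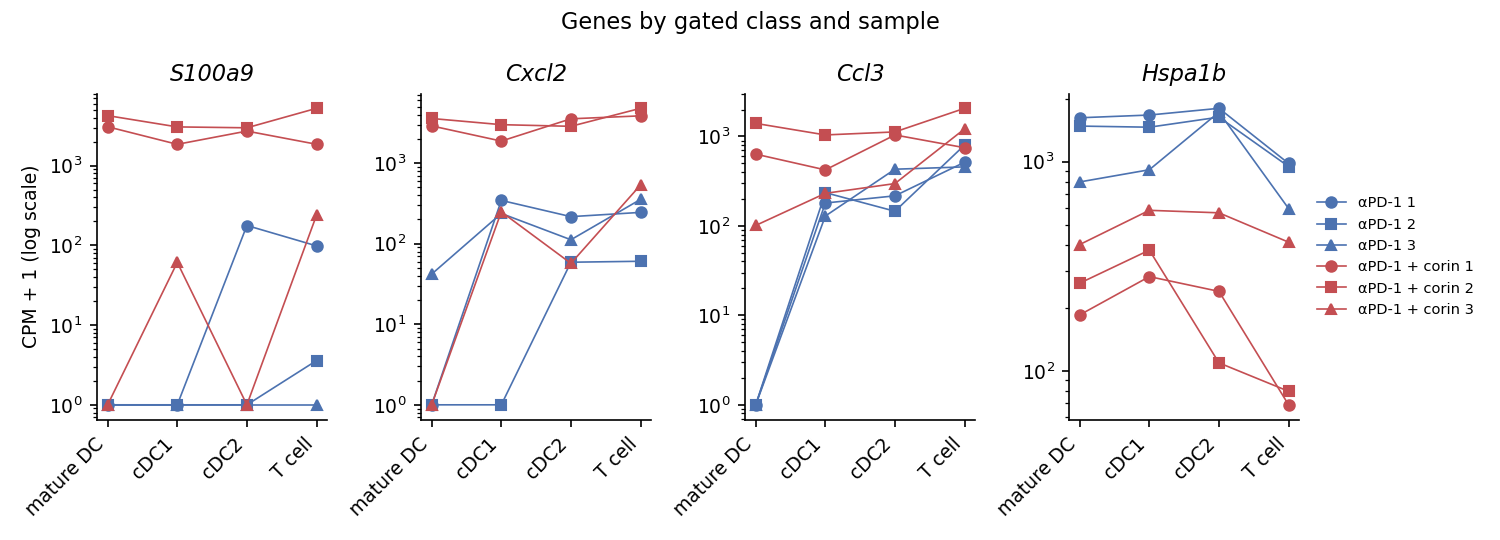
CPM + 1 on a log axis of S100a9, Cxcl2, Ccl3 and Hspa1b in mature migratory dendritic cells, cDC1, cDC2 and T cells, with 1 line per sample (blue αPD-1, red αPD-1 + corin, symbols for replicates). S100a9 and Cxcl2 are high in all 4 classes of αPD-1 + corin replicates 1 and 2, Ccl3 is at 0 in the αPD-1 members and above 0 in the other classes, and Hspa1b is lower in each class of the corin samples.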

How the data were processed

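The deposited files are matrices of UMI counts per gene and barcode, which the authors made with Cell Ranger 8.0 (per the labels' processing notes) from 10x 5′ libraries on GRCm39, without normalization. The study removed doublets with DoubletFinder, whose calls are not marked in the matrices, and no doublet caller was applied here to the members. The members and gene lists were chosen with earlier results of these data known. The cDC1 gate took at least 2 UMIs of Xcr1 and Clec9a and no Ccr7 UMI, and the cDC2 gate at least 2 UMIs of Cd209a, Flt3 and Zbtb46 with no Xcr1, Clec9a or Siglech UMI, with the same other limits. T cells had at least 2 Cd3 UMIs and fewer than 3 MHC class II UMIs.

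Counts of each class were summed per sample, since samples and not cells are the replicates. They were tested with edgeR 4.0.16 (R 4.3.3, TMM, filterByExpr, quasi-likelihood test, Benjamini-Hochberg adjustment, threshold 0.05), with the sample as a block for interactions, and alternatively with DESeq2 1.42.0. The procedure was tested on simulated data. Each SE is an approximation, the absolute log2 fold change divided by the square root of edgeR's F statistic. It is least reliable for genes with few UMIs. Genes of the gates were left out of counts of calls. Shares were compared with two-sided exact permutation tests (scipy 1.17.1), and doublets were scored with Scrublet (scanpy 1.11.5) as an alternative, leaving out 0.4% per 1000 barcodes. Named genes were those of the gate, list members of at least 20 CPM that define a list, and calls of at least 20 CPM without overlap between samples, with calls that did overlap named in the closing section. Camk1d, Ccl7, Gda and Apol7c were chosen after their values were seen. Promoters were read from GRCm39 with the GENCODE vM39 annotation.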

Additional observations from a re-analysis of the deposited data

Results flagged for a closer look

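Changes with treatment that differed between the members and another dendritic cell class by the interaction test of edgeR were looked at again. Against cDC2, the differences in log2 fold change were 8.06 for Ccl3 and -4.99 for Ccl7. Against cDC1, they were 8.12 for Ccl3, 5.06 for Spp1, -2.28 for Camk1d, -2.72 for Nr4a2, -3.79 for Ccl7 and -4.52 for Gda.

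Ccl7, a monocyte chemokine, rested on 1 sample. The members had 28, 0 and 0 UMIs in αPD-1 and 32, 0 and 0 in αPD-1 + corin, and 27 of the 28 UMIs of αPD-1 replicate 1 were in 1 member. Without that sample the difference turned to 1.33 against cDC2 and 2.66 against cDC1, neither past the test. Camk1d had 1709, 9506 and 6618 CPM in αPD-1 members and 939, 822 and 1803 CPM in αPD-1 + corin members, so that the groups overlapped, and its log2 fold change in cDC1 was 0.11. Gda, a guanine deaminase, had 14, 0 and 12 UMIs against 46, 36 and 0, which also overlapped as CPM.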

How the results depend on the processing

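Of 469 recomputed values, 388 stayed the same. For effects this meant the same sign and side of the threshold, and for counts of calls a change of at most 1.5 times. A call was lost in 51 and gained in 4 with the same sign, 21 counts of calls moved by over 1.5 times, and 5 values changed direction. With no upper limit on genes, the log2 fold changes of Pgk1, Ldha and Tpi1 became -1.04, -0.34 and -1.01. Leaving out 1 sample at a time gave -5.18 to 1.33 for Ccl7 against cDC2 and -4.00 to 2.66 against cDC1, 0 to 3 called genes in the members, 0 to 4 against cDC2 and 0 to 8 against cDC1. The difference in share of kept barcodes ranged from 0.194 to 0.617 and in share of dendritic cells from 0.722 to 14.2 percentage points. In the members, 30 genes were called with no filter on low counts, 2 by DESeq2, and, in alternatives chosen after seeing the data, 13 with no limit on C1q, Cd3 or B cell UMIs and 16 in the 4 samples with at least 5 members. Against cDC2, 4 were called with RLE size factors, 1 without a filter and 0 after thinning. Against cDC1, 0 were called without a filter and 2 after thinning. The causes were not tested.

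Replicate numbers did not pair the samples: deviations of same-numbered samples correlated at 0.076, 0.0483 and -0.0128. With a replicate block, 0 genes were called in the members, 1 against cDC2 and 0 against cDC1. With 2 and 3 members in the smallest samples, 1 UMI was worth 100.2 CPM in αPD-1 + corin replicate 3, and smaller differences were not detectable at this depth.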
